A study of Homo sapiens with 2 samples.

Results

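The accessible regions of chromosome 20 were described in Jurkat and RPMI-8402, established human lines of T-cell acute lymphoblastic leukaemia (T-ALL), in which immature T cells turn malignant. Open DNA was mapped by ATAC-seq: the Tn5 transposase cuts where chromatin is open and leaves sequencing adapters behind. Both lines were kept in RPMI-1640 medium with 10% tetracycline-free serum and antibiotics, with no drug, knockdown or transgene named in the labels, and each was represented by 1 library. The regions are all peaks on chromosome 20 (build hg19) in the peak lists, 539 of 25197 peaks in Jurkat (2.14%) and 573 of 24607 in RPMI-8402 (2.33%). The chromosome was chosen by the signal of its shared peaks, which was high in RPMI-8402 relative to Jurkat, so that ratio is given as a description of its layout along the chromosome and is no finding. With 1 library per line, no difference could be tested, and the intervals printed cover counting error only.

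An ATAC-seq peak marks DNA that is free enough of nucleosomes for the transposase to enter, typically a promoter, an enhancer or an insulator. How many fragments pile up at such a site depends on how open it is in each cell and on how many copies of it each cell holds. Chromosome 20 carries several genes of T-cell and leukaemia biology. On the short arm lie PCNA, the sliding clamp of DNA replication, CDC25B, a phosphatase that drives entry into mitosis, and JAG1, a ligand of the NOTCH receptors. On the long arm lie PLCG1, a phospholipase of receptor signalling, ADA, whose loss causes severe combined immunodeficiency, NFATC2, a calcium-driven transcription factor, and the chromatin genes ASXL1 and DNMT3B. E2F1 and MYBL2, transcription factors of the cell cycle, BCL2L1, a survival gene, and TOP1 and AURKA are on the long arm as well. They are named as landmarks only. Regions below are given by position on hg19, and which of them lie at a gene, exon, intron or UTR was not analysed here.

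The long arm held most of the peaks in both lines. Jurkat had 186 peaks on the short and 353 on the long arm, and RPMI-8402 had 188 and 385. No peak of either list lay between 26318590, where the last short-arm peak ended in both lines, and 29428569, and the arms were divided within this gap, which holds the centromere. RPMI-8402 peaks numbered 1.06 times the Jurkat peaks for the chromosome (95% exact conditional interval 0.943 to 1.20), 1.01 on the short arm (0.821 to 1.24) and 1.09 on the long arm (0.942 to 1.26). Each of these intervals included 1, and over all 22 autosomes this ratio was 0.967 (0.950 to 0.984). Peak density on the span from first to last peak was 7.13 per Mb on the short arm and 10.5 on the long arm in Jurkat, and 7.22 and 11.5 in RPMI-8402.

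Sharing was counted at an overlap of at least 1 bp. In Jurkat, 399 peaks of chromosome 20 were shared, or 74.0% (70.1 to 77.7%, 95% exact binomial interval), beside 67.2% over all autosomes. In RPMI-8402, 389 were, or 67.9% (63.9 to 71.7%), beside 68.6% over all autosomes. Only the Jurkat share was thus above the autosomal figure, by more than its counting error. By this share chromosome 20 ranked 4 of 22 autosomes in Jurkat and 14 in RPMI-8402. On the short arm the shares were 70.4% in Jurkat (63.3 to 76.9%) and 68.6% in RPMI-8402 (61.5 to 75.2%). On the long arm these were 75.9% (71.1 to 80.3%) and 67.5% (62.6 to 72.2%). Merged, the lists gave 713 regions on the chromosome, of which 389 (54.6%) held peaks of both lists. A further 184 held RPMI-8402 peaks alone and 140 held Jurkat peaks alone.

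Along 13 bins of 5 Mb, both lines had dense stretches at the chromosome's ends and at the start of the long arm. The bin at 30 to 35 Mb was the densest, with 76 Jurkat and 82 RPMI-8402 peaks. The ends followed, with 68 and 67 peaks at 0 to 5 Mb and 68 and 76 from 60 Mb on. RPMI-8402 had more peaks in 9 bins and Jurkat in 4. The intervals of the ratio were not adjusted for the number of bins, so a single exception is a description only. In 12 bins the interval of the ratio included 1. The exception was the bin at 50 to 55 Mb, with 15 Jurkat and 32 RPMI-8402 peaks, a ratio of 2.13 (1.12 to 4.24). There, 13 of the Jurkat peaks were shared, which left 2 Jurkat-only against 20 RPMI-8402-only peaks. The neighbouring bin at 55 to 60 Mb leaned the other way, with 63 Jurkat and 44 RPMI-8402 peaks, a ratio of 0.698 (0.464 to 1.04). It held 34 Jurkat-only and 17 RPMI-8402-only peaks, and the Jurkat share of 46.0% (33.4 to 59.1%) was the lowest of all bins. On the short arm a bin of the first kind lay at 5 to 10 Mb, with 16 Jurkat and 27 RPMI-8402 peaks and an RPMI-8402 share of 44.4% (25.5 to 64.7%). One of the second kind lay at 20 to 25 Mb, with 28 and 20 peaks and a Jurkat share of 53.6% (33.9 to 72.5%).

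**Figure D1:**
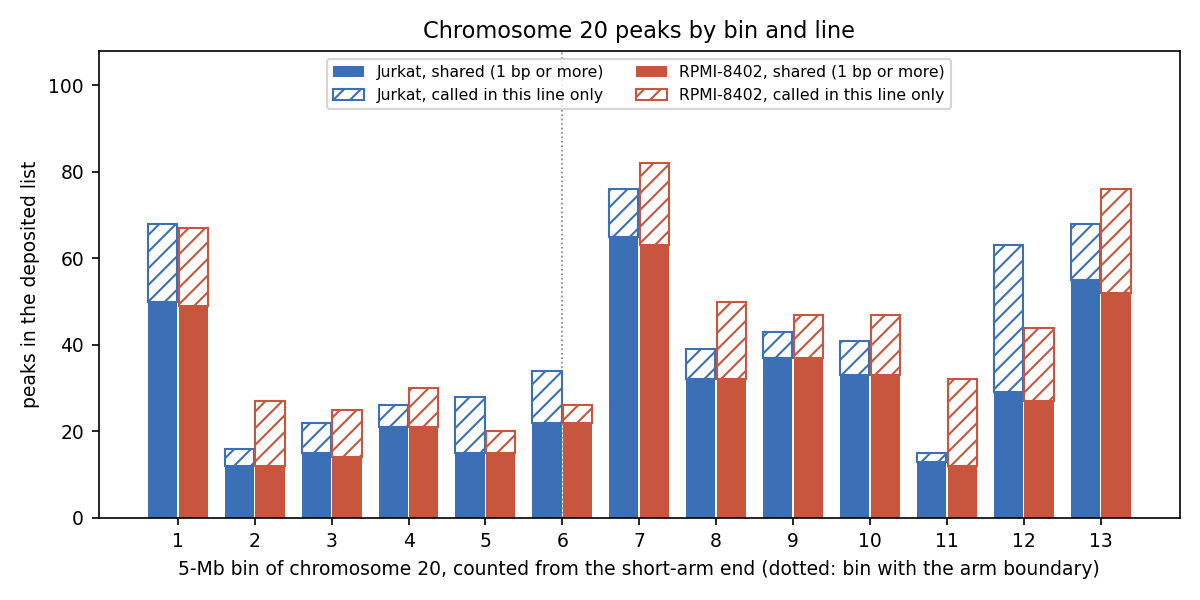
Number of peaks (vertical axis) in each 5-Mb bin of chromosome 20, counted from the short-arm end (horizontal axis), in Jurkat (blue) and RPMI-8402 (red). Filled bars are peaks that share at least 1 bp with the other list and hatched bars are peaks called in that line only. Bin 11 holds 32 RPMI-8402 and 15 Jurkat peaks, and bin 12 holds 44 and 63.

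Strong peaks on chromosome 20 were nearly always found in both lines. Sharing by strength was not computed over the autosomes, so it is not given as a trait of this chromosome. Each list's peaks on the chromosome were divided by the authors' −log10 q into 4 groups of like number. In the strongest group all 135 Jurkat peaks were shared (97.3 to 100%) and 142 of 143 RPMI-8402 peaks were (99.3%, 96.2 to 99.98%). In the weakest group 57 of 135 were shared in Jurkat (42.2%, 33.8 to 51.0%) and 39 of 144 in RPMI-8402 (27.1%, 20.02 to 35.1%). Peaks called in 1 line only were narrow and low, with a median width of 434 bp and enrichment of 5.51 in Jurkat, against 732 bp and 9.23 for shared peaks. In RPMI-8402 these values were 480 bp and 5.08 for line-only and 819 bp and 8.09 for shared peaks. At this depth a missing weak peak could not be told from one just under the calling threshold, since the lowest called summit on the chromosome had 10 fragments in Jurkat and 11 in RPMI-8402.

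**Figure D2:**
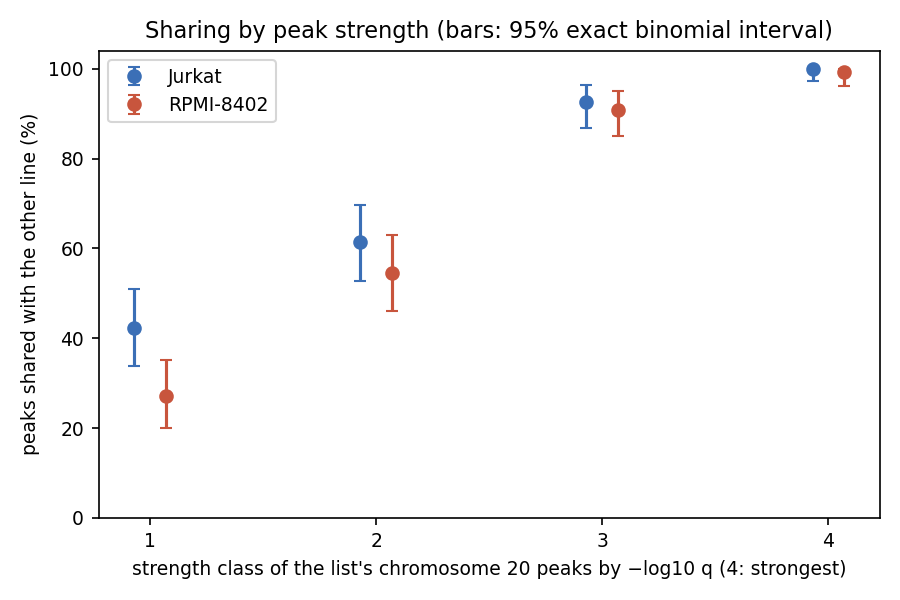
Percent of chromosome 20 peaks that share at least 1 bp with the other list (vertical axis) by strength group of the list's own −log10 q (horizontal axis, 4 the strongest), in Jurkat (blue) and RPMI-8402 (red). Bars are 95% exact binomial intervals. The weakest group lies at 42.2% (Jurkat) and 27.1% (RPMI-8402), the strongest at 100% and 99.3%.

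To compare signal, peaks that overlapped each other and no further peak were paired 1 to 1, which gave 379 pairs on the chromosome, 127 on the short and 252 on the long arm. Line-only peaks are not in these pairs. The deposited signal is the fold enrichment, the summit's pileup of fragments plus 1 over the local background plus 1, and both terms were solved from the deposited fold and p-value. Every log2 ratio below is RPMI-8402 to Jurkat less the median of all 15948 autosomal pairs, unless said otherwise. These autosomal medians were −0.24 for the fold enrichment, −0.18 for the pileup, 0.09 for the background and 0.05 for the width.

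As the chromosome was chosen for a high signal ratio, neither its fold enrichment ratio nor its pileup ratio, nor their ranks, are findings. The higher RPMI-8402 signal lay mainly in the pileup and was slight in the deposited fold enrichment. The median pair had 51 fragments at its summit in Jurkat and 62 in RPMI-8402, while over the autosomes it had 59 and 53. The median log2 ratio of pileups was 0.36 (25th to 75th percentile of pairs −0.04 to 0.77), the highest of 22 autosomes, with chromosome 4 next at 0.31. Uncentred, it was 0.19, and when each library was scaled by its lowest background, which puts the autosomal median at −0.48, it was −0.11. Each scaling moves all pairs by the same amount, so the sign of the ratio rests on the scaling chosen, while ranks and differences between regions cannot change with it. The local background differed as much as the pileup, with pair medians of 4.48 (Jurkat) and 6.36 (RPMI-8402) fragments per base. Its log2 ratio had a median of 0.39 (−0.002 to 0.69), again the highest of the autosomes. In the fold enrichment, which divides the one by the other, the median log2 ratio was 0.03 (−0.16 to 0.24), second to the 0.07 of chromosome 4. Uncentred, it was −0.21, and 284 of the 379 pairs (74.9%) had the higher fold enrichment in Jurkat, much like the 75.1% of all autosomal pairs. Across the 379 pairs the log2 ratios of pileup and background were correlated at r = 0.87 (Pearson) and rho = 0.86 (Spearman), as a description, since both come from the same libraries and the background window may hold the peak itself.

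**Figure D3:**
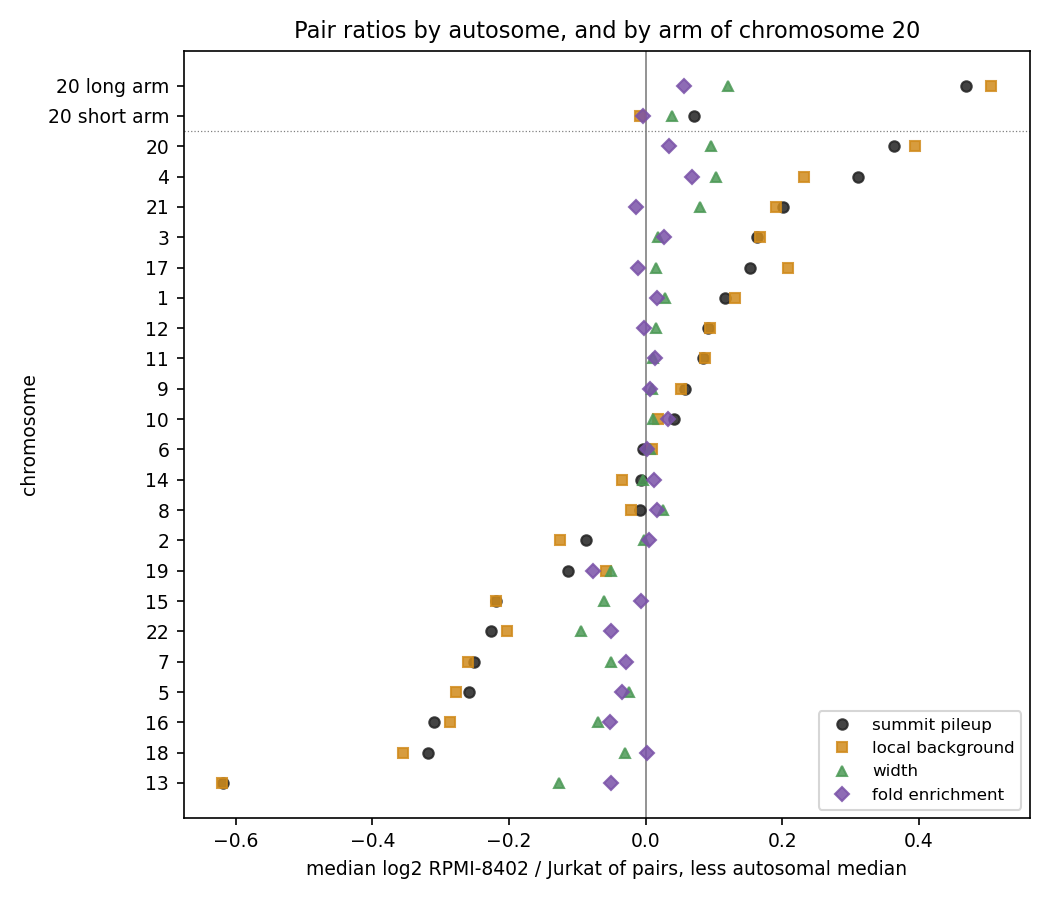
Median of the RPMI-8402 to Jurkat log2 ratio over pairs, less the median of all autosomal pairs (horizontal axis), for each autosome and both arms of chromosome 20 (vertical axis). Symbols mark summit pileup (circle), local background (square), width (triangle) and fold enrichment (diamond). Chromosome 20 has the highest pileup median, 0.36, with 0.07 on its short and 0.47 on its long arm, and fold enrichment medians lie near 0 throughout.

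Pairs past a 1.5-fold difference were counted for each measure. The chromosome was chosen for its signal ratio, and the deposited signal is the fold enrichment, of which the pileup is a part. Counts in both measures are thus descriptions. In pileup, 129 pairs (34.0%) were at least 1.5-fold higher in RPMI-8402, beside 20.0% of all autosomal pairs. In Jurkat 19 (5.01%) were, beside 16.1%. In fold enrichment, 18 pairs (4.75%) were higher in RPMI-8402, beside 7.44% of all autosomal pairs, and 13 (3.43%) in Jurkat, beside 3.19%. Large differences in fold enrichment towards RPMI-8402 were thus fewer than over the autosomes, although the median ratio was slightly above the autosomal one. Without centring these 2 counts were 8 and 43. In width, 59 pairs (15.6%) were at least 1.5-fold wider in RPMI-8402, beside 11.2%, and 18 (4.75%) in Jurkat, beside 5.89%.

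The pileup shift lay mainly on the long arm. On the short arm the median log2 pileup ratio was 0.07 (−0.32 to 0.52) and 70 of 127 pairs (55.1%) lay above the autosomal median. On the long arm it was 0.47 (0.12 to 0.89) and 201 of 252 pairs (79.8%) did. The arms differed by 0.40 on the log2 scale, a factor of 1.32, and this difference does not depend on centring or scaling. The median pair of the long arm had 50 fragments in Jurkat and 66 in RPMI-8402, and that of the short arm 56 and 52. The background differed between arms by 0.51 on the log2 scale, with a short-arm median of −0.01 and a long-arm median of 0.51, and 222 of 252 long-arm pairs (88.1%) were above the autosomal median. The fold enrichment differed by only 0.06, with medians of −0.004 (−0.16 to 0.22) and 0.06 (−0.15 to 0.25), a gap far smaller than the spread of the pairs. The gaps in pileup and background were larger, but there too the 25th to 75th percentile ranges of the arms overlapped. For the background these ranges were −0.27 to 0.43 on the short and 0.27 to 0.82 on the long arm. At least 1.5-fold higher in RPMI-8402 pileup were 26 short-arm pairs (20.5%) and 103 long-arm pairs (40.9%), and in the other direction 14 (11.02%) and 5 (1.98%). From peak lists alone, more copies of the long arm and more open copies of it cannot be told apart.

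**Figure D4:**
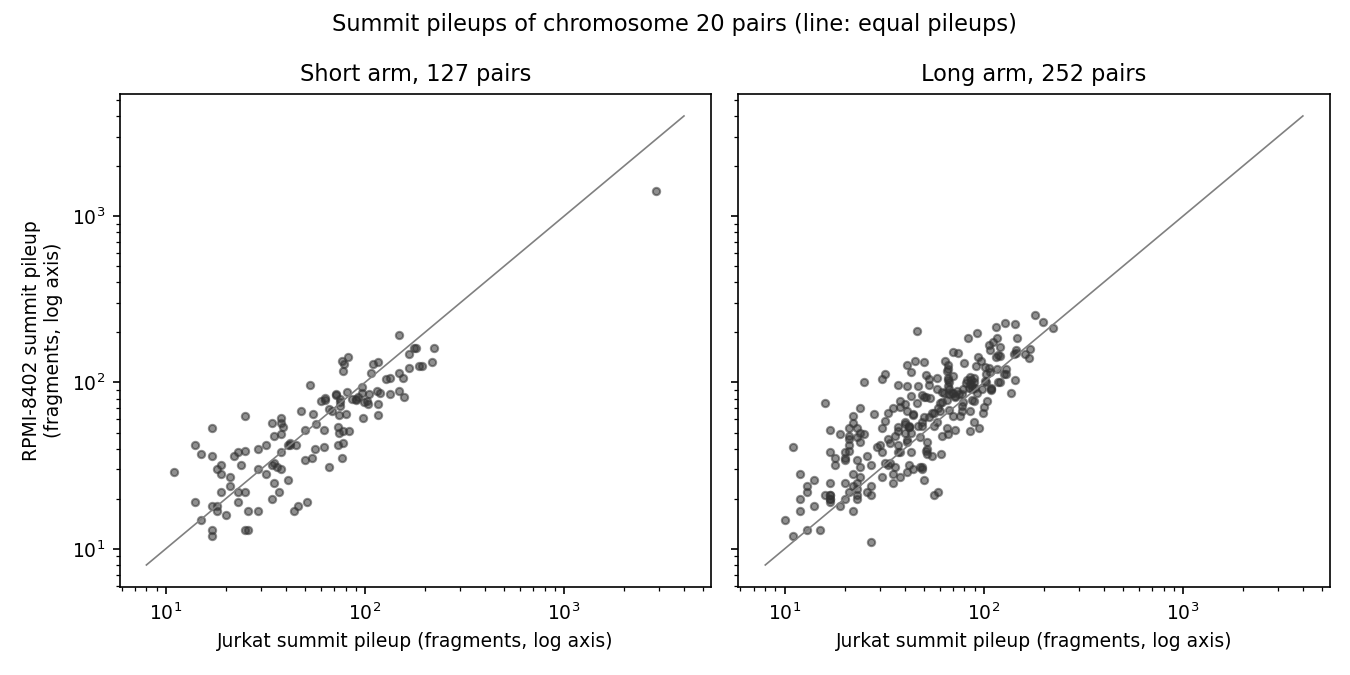
Summit pileup of each chromosome 20 pair in Jurkat (horizontal, log axis) and RPMI-8402 (vertical, log axis), in fragments, for the short arm (left, 127 pairs) and the long arm (right, 252 pairs). The grey line marks equal pileups. Short-arm pairs scatter around the line, with medians of 56 and 52, while most long-arm pairs lie above it, with medians of 50 and 66.

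Along the bins, the pileup ratio was higher in most bins after the one at 25 to 30 Mb, which holds the centromere. The 6 bins from 0 to 30 Mb had medians between −0.31 and 0.18. The next 5, from 30 to 55 Mb, had medians of 0.63, 0.60, 0.35, 0.51 and 1.06 in order. The last were 0.10 at 55 to 60 Mb and 0.42 from 60 Mb on. A median of 0.5 or more was reached by 4 of the 13 bins, beside 5.56% of 504 autosomal bins with at least 10 pairs. The middle range of these autosomal bins, the 25th to 75th percentile, was −0.18 to 0.19. They include the 13 bins of chromosome 20. As the chromosome was chosen for its signal ratio, the count is a description and no finding. The lowest bin, 20 to 25 Mb, stood at −0.31 (−0.56 to −0.17) over 15 pairs, and the highest, 50 to 55 Mb, at 1.06 (0.20 to 1.25) over 11 pairs. These are also bins in which Jurkat and RPMI-8402, respectively, had more peaks. Over the 13 bins, Pearson's r of the median pileup ratio with the log2 peak-number ratio was 0.66 and Spearman's rho 0.45. Without the lowest and the highest bin r was 0.18 and rho 0.11, so this description rests on them.

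At the scale of 5-Mb bins, the background ratio showed a step without that exception. Its medians lay between −0.33 and 0.14 in the first 6 bins and between 0.32 and 0.84 in the last 7. In Jurkat the median background at pairs was between 2.81 and 6.01 across all bins and was no higher on the long arm, at 4.33 against 4.65 on the short arm. In RPMI-8402 it was 7.04 on the long and 5.47 on the short arm, but this level was uneven. It was 7.62 at 30 to 35 Mb, 7.06 at 35 to 40 Mb and 9.45 from 60 Mb on, and between 4.84 and 5.88 in the 4 bins from 40 to 60 Mb. The bins from 0 to 30 Mb ran from 3.67 to 7.04, so the step is one of the ratio between the lines and not of the RPMI-8402 level alone. The fold enrichment had no such step. Its bin medians ran from −0.10 at 20 to 25 Mb to 0.13 at 45 to 50 Mb. Above 0 were 9 of 13, beside 52.2% of 504 autosomal bins. As the chromosome was chosen for its signal ratio, this count is a description.

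**Figure D5:**
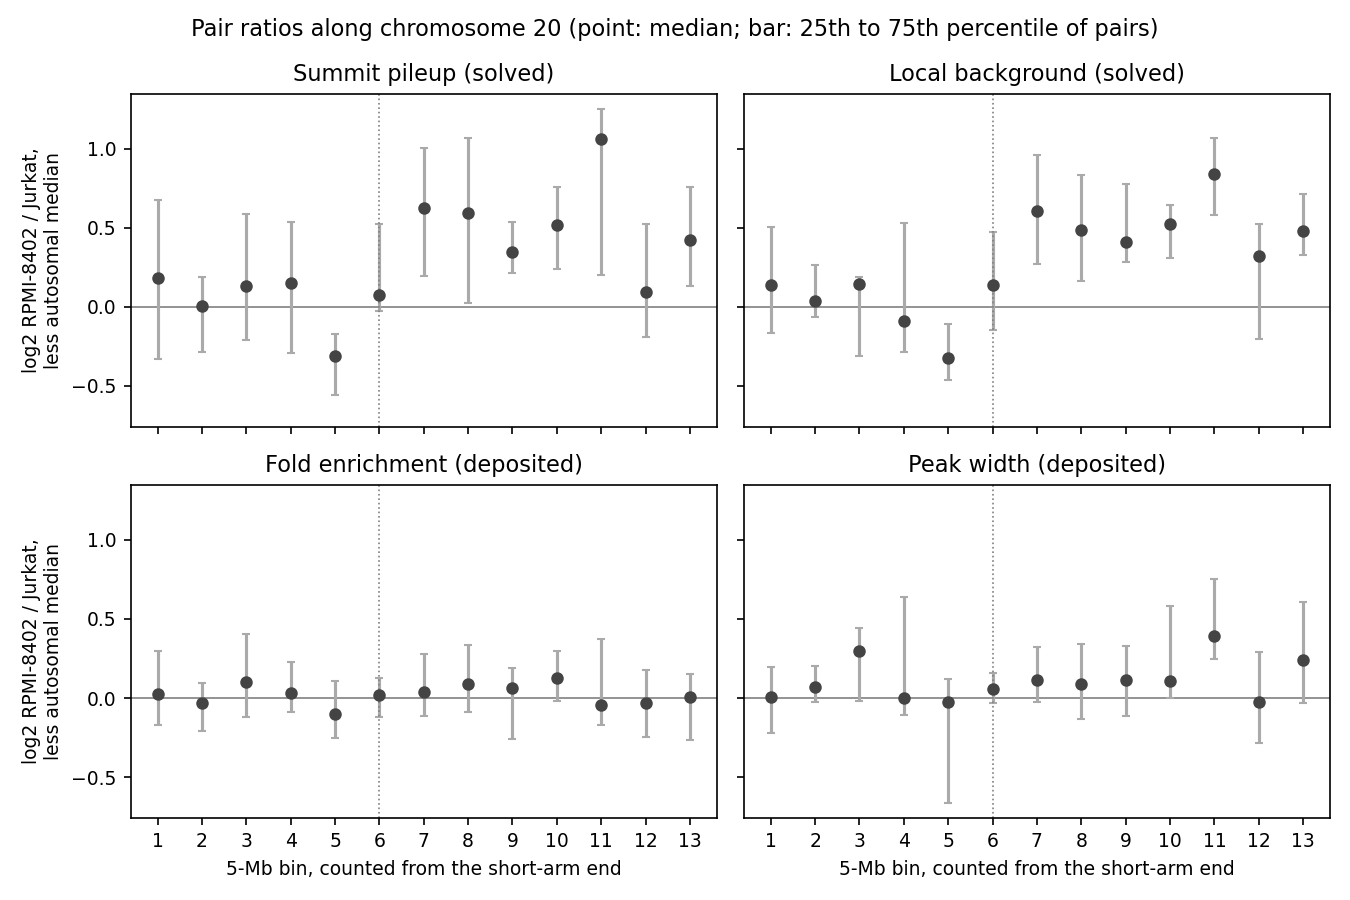
Median RPMI-8402 to Jurkat log2 ratio over the pairs of each 5-Mb bin, less the autosomal median (vertical axis), against the bin's number from the short-arm end (horizontal axis), for summit pileup, local background, fold enrichment and width. Bars span the 25th to 75th percentile of pairs and the dotted line marks the bin with the arm boundary. Background medians are 0.32 or more from bin 7 on, pileup medians lie between 0.35 and 1.06 except in bin 12 (0.10), and fold enrichment stays between −0.10 and 0.13.

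Windows of 1 Mb showed how sharp and how even the step was. Such windows were not counted over the autosomes, and the chromosome was chosen for its signal ratio. The window counts are thus descriptions and not given as a trait of the chromosome. On the long arm 21 windows held at least 5 pairs, and 20 of them had a median pileup ratio above the autosomal median. The exception was 56 to 57 Mb, at −0.04 over 9 pairs, and its neighbour at 55 to 56 Mb stood at 0.01 over 7 pairs. The highest, 31 to 32 Mb, stood at 1.39 over 9 pairs, with a background ratio of 1.45 and a fold enrichment ratio of 0.28. On the short arm 12 windows held at least 5 pairs, and 7 were above the autosomal median. They ran from −0.42 at 13 to 14 Mb to 0.92 at 4 to 5 Mb, so the short arm was mixed rather than level. The last short-arm window with at least 5 pairs, 25 to 26 Mb, stood at 0.05 over 16 pairs, and the first on the long arm, 30 to 31 Mb, at 0.39 over 18 pairs. Between them, 4 pairs at 29 to 30 Mb had a median of 0.68. At 52 to 53 Mb, the 7 pairs had a median pileup ratio of 1.06, and RPMI-8402 had 17 peaks there against 9 in Jurkat. The background ratio was uneven in windows of at least 5 pairs as well. On the short arm it ran from −0.26 at 23 to 24 Mb to 0.79 at 4 to 5 Mb. On the long arm it ran from −0.16 at 56 to 57 Mb to 1.45 at 31 to 32 Mb. The background step of the 5-Mb bins was thus not seen in every window.

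Pairs on the long arm also leaned to wider RPMI-8402 peaks. The RPMI-8402 peak was the wider in 272 of the 379 pairs (71.8%), beside 56.6% of all autosomal pairs, with 82 of 127 (64.6%) on the short and 190 of 252 (75.4%) on the long arm. The width ratio was above the autosomal median in 69 short-arm (54.3%) and 172 long-arm pairs (68.3%). The median widths of pairs were 744 bp in Jurkat and 809 bp in RPMI-8402 on the chromosome, and 761 and 796 bp over the autosomes. The log2 width ratio had a median of 0.10 (−0.09 to 0.35), second to chromosome 4 among the autosomes. It was 0.04 (−0.15 to 0.28) on the short and 0.12 (−0.04 to 0.39) on the long arm, where the median widths were 729 and 812 bp. The bin at 50 to 55 Mb had the widest shift, 0.40 (0.24 to 0.75), with median widths of 636 and 889 bp. The bins at 10 to 15 Mb and from 60 Mb on followed with 0.30 and 0.24, while 55 to 60 Mb stood at −0.03. Across pairs the log2 ratios of width and pileup had a Pearson r of 0.44, and those of width and fold enrichment one of 0.15. Width also depends on fragment length, and the narrowest peak was 261 bp in the Jurkat list and 309 bp in the RPMI-8402 list. The part of this in the arm difference was not tested.

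RPMI-8402 peaks bridged separate Jurkat peaks at 10 sites (1.75% of RPMI-8402 peaks on the chromosome), while no Jurkat peak covered 2 RPMI-8402 peaks. Over the autosomes 233 RPMI-8402 peaks (0.986%) and 11 Jurkat peaks did so. Of the 10 sites, 8 lay on the long arm, which held 67.2% of all RPMI-8402 peaks of the chromosome. The bridging peaks were 914 to 3214 bp wide and the Jurkat peaks under them were 277 to 1022 bp apart. At positions 31070664 to 31072623, a RPMI-8402 peak of 1960 bp and 5.68-fold enrichment covered 2 Jurkat peaks of which the wider was 372 bp, with 6.43-fold enrichment at most. The other long-arm examples included positions 30192081 to 30193676, 50157794 to 50159432 and 62283691 to 62285403. The summits of pairs lay a median of 62 bp apart, against 67 bp over the autosomes. Of the 379 pairs, 250 (66.0%) had summits within 100 bp, a share that was not computed over the autosomes.

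The pileup ratio of the chromosome was also described by peak strength. The chromosome was chosen for a high signal ratio, and across its pairs the pileup and fold enrichment ratios had a Pearson r of 0.73. The split is thus a description and no check of the shift. Pairs were put into 3 strength groups of like number by the mean −log10 q of both lines. The median log2 pileup ratio on the chromosome was 0.47 in the weakest, 0.39 in the middle and 0.28 in the strongest group. Over the autosomal pairs within the same limits of strength it was 0.23, −0.005 and −0.18. The chromosome stood above the autosomes in each group, and by the most in the strongest. The fold enrichment ratio was 0.12, 0.04 and −0.02 on the chromosome and 0.14, 0.005 and −0.07 over the autosomes. In this measure the chromosome stood slightly below the autosomes in the weakest group and slightly above them in the middle and strongest. Both ratios fell with strength, on the chromosome and over the autosomes alike.

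The 5 pairs with the highest fold enrichment in RPMI-8402 relative to Jurkat comprised 4 on the long arm, which held 66.5% of all pairs, and 1 on the short arm. Of all pairs at least 1.5-fold higher in RPMI-8402, 11 lay on the long (4.37% of its pairs) and 7 on the short arm (5.51%). The highest lay on the short arm, where the Jurkat peak at positions 17207253 to 17207785 had a fold enrichment of 5.80 and a pileup of 14 fragments (95% Poisson interval 7.65 to 23.5) and the RPMI-8402 peak had 10.6 and 42 (30.3 to 56.8). Its centred ratio was 2.16. The other 4 had centred ratios of 1.92 to 1.97. At positions 31407596 to 31408402 Jurkat had a fold enrichment of 9.12 and RPMI-8402 one of 15.1, with pileups of 46 (33.7 to 61.4) and 205 (178 to 235). At positions 31269076 to 31269428 the fold enrichment was 4.69 and 7.82 and the pileup 16 and 75. These pairs are 2 of the 9 in the window at 31 to 32 Mb. The remaining 2 lay at positions 37359655 to 37360353, with pileups of 17 and 38, and 35463891 to 35464350, with 17 and 52.

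In the other direction, the leading pair lay in the same 1-Mb window as one of these. The Jurkat peak at positions 37302589 to 37303124 had a fold enrichment of 12.3 and a pileup of 56 fragments (42.3 to 72.7), and its RPMI-8402 partner had 5.14 and 21 (13 to 32.1), a centred Jurkat to RPMI-8402 ratio of 2.02. At positions 56203446 to 56203989 Jurkat had a fold enrichment of 8.70 and RPMI-8402 one of 4.06, with pileups of 27 and 11. On the short arm, the Jurkat peaks at positions 2820883 to 2821865 and 2644474 to 2644955 had pileups of 77 and 51 against 35 and 19, and centred ratios of 1.81 and 1.72. The fifth, at positions 62711085 to 62711547, showed how the measures part. Its fold enrichment was 6.49 in Jurkat and 3.16 in RPMI-8402, yet its pileup was 43 in Jurkat and 83 in RPMI-8402, with backgrounds of 5.78 and 25.6 fragments per base.

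The pairs with the highest fold enrichment in both lines were ranked by the lower of the 2 values, a rule that favours pairs alike in the lines. Of the first 5, 4 lay on the short arm, which held 127 of the 379 pairs. The peak at positions 25677046 to 25677741 had 20.5-fold enrichment in Jurkat and 16.6 in RPMI-8402, with pileups of 177 and 161. The next 3, starting at positions 18488008, 10015457 and 18268587 in Jurkat, had pileups of 222, 134 and 149 there and of 161, 106 and 114 in RPMI-8402. The long-arm site at positions 44992589 to 44993163 had 121 fragments in Jurkat and 144 in RPMI-8402, so only there was the pileup higher in RPMI-8402. Centred fold enrichment ratios of these 5 lay between 0.948 and 1.07.

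Among peaks called in Jurkat only, the 5 with the highest −log10 q were all on the long arm, which held 85 of the 140 such peaks (60.7%). The first, at positions 58508554 to 58509465, was 912 bp wide with 10.3-fold enrichment and a pileup of 56 fragments (42.3 to 72.7), and the nearest RPMI-8402 peak was 5865 bp away. The second, at positions 30555912 to 30556646, had 10.7-fold enrichment and 48 fragments (35.4 to 63.6), with the nearest RPMI-8402 peak 15744 bp away. Those at positions 47444605 to 47445085 and 60505920 to 60506735 had 46 and 42 fragments and no RPMI-8402 peak within 92666 and 93995 bp. The remaining peak, with 41 fragments, lay at positions 48522139 to 48522956. With peaks under the list's median width of 611 bp left out, the short-arm peak at positions 633485 to 634316 entered, with 40 fragments and an 8.10-fold enrichment.

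Among peaks called in RPMI-8402 only, the 2 strongest lay on the short arm, which held 59 of the 184 such peaks. These 2 were on either side of 10 Mb. The first, at positions 9819236 to 9820156, had 13.1-fold enrichment and 113 fragments (93.1 to 136), with no Jurkat peak within 195300 bp. It was the single peak of the strongest RPMI-8402 group without a Jurkat partner. The second, at positions 10091776 to 10092256, had 9.96-fold enrichment and 55 fragments (41.4 to 71.6). On the long arm, positions 44539443 to 44540622 had 65 fragments and 7.25-fold enrichment. Positions 51588472 to 51589160 had 48 fragments, and the nearest Jurkat peak was 621263 bp away. Positions 62714582 to 62715599 had 98 fragments but only 4.60-fold enrichment, over a background of 20.5 fragments per base. Restricting the list to peaks of at least its median width of 694 bp added positions 3145995 to 3146746 and 33463750 to 33464591, with 56 and 59 fragments.

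Line-only regions also followed one another. In RPMI-8402 the longest such run held 7 regions over 1381 kb of the short arm, positions 8438662 to 9820156, and ended in the strong peak just described. It lies in the bin at 5 to 10 Mb, where the 12 pairs had a median width ratio of 0.07 and a median pileup ratio of 0.003. The next runs held 4 regions each, at positions 37854925 to 37897986 and 50277961 to 50720625. In Jurkat the longest runs held 4 regions, at positions 56008005 to 56194733 and 58700696 to 58775677, both in the bin at 55 to 60 Mb. Runs of at least 3 regions numbered 8 in Jurkat, 5 of them on the long arm, and 13 in RPMI-8402, 9 of them on the long arm. The long arm held 60.7% of the Jurkat-only and 67.9% of the RPMI-8402-only peaks. RPMI-8402 also had more line-only regions, 184 against 140. Runs over the autosomes were not counted, so these numbers are not given as a trait of the chromosome. The longest run called in both lines held 12 regions at positions 60640629 to 61274436, and 9 more at positions 30160380 to 30327493 followed.

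Apart from the centromeric gap, which was the largest in both lines, the largest gaps of each arm lay in different places. In Jurkat the largest gap of the short arm was 1858 kb, from position 6141995 to 7999635, and that of the long arm was 2109 kb, from 52825069 to 54933864. In RPMI-8402 they were 1115 kb, from 10655560 to 11770701, and 1350 kb, from 37897987 to 39247965. The long-arm Jurkat gap falls in the bin with 20 RPMI-8402-only peaks. Outside the centromeric stretch, 38 to 39 Mb was the only window of 1 Mb from 0 to 63 Mb without a peak in either line.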

How the data were processed

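Chromatin accessibility was measured by paired-end ATAC-seq (150-bp reads) in 1 Jurkat and 1 RPMI-8402 library. The submitters' processing notes list Bowtie2, Picard, SAMtools, MACS2 2.1.1.2016030 and hg19 but give no role or parameter. Read filters and read totals: not given in the sources used here. The authors deposited 1 peak list per library, pooling none. Each peak has a deposited score (10 times −log10 p, cut to whole numbers), a fold enrichment ratio over background, −log10 of p and q, and a summit position.

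Pileup and background were solved together from the fold, (pileup + 1)/(background + 1), and p, the Poisson chance of a larger pileup. The pileup came out whole within 0.01 for 100% of chromosome 20 peaks. As the only measure of depth, the lowest background of each list was 1.59 (Jurkat) and 1.96 (RPMI-8402) fragments per base. PCR copies would make counting intervals too narrow. In simulated data, pileups of all 539 and 573 chromosome 20 peaks were recovered (100%), a check of the solving step and not of the formula.

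Overlaps were computed with Python 3.11.15, scipy 1.17.1, numpy 2.4.6 and pandas 2.3.3, and gave the same numbers as bedtools 2.31.1. Groups came from the cell-line labels. Peaks were placed by midpoint. Regions named were the 5 line-only peaks per line with the highest −log10 q, with and without a minimum of the list's median width, the 5 pairs per direction with the largest fold enrichment ratio, the 5 highest in both, the 3 widest peaks and 3 longest runs per line, and the extreme bins. The chromosome, these rules and 55 landmark genes, all on chromosome 20 of GRCh38.p14 in RefSeq, were chosen with earlier results of these data known. Pileups, 1-Mb windows, strength groups and the bridged sites were added after seeing the data. Alternatives were other overlap rules, stricter peak lists, means, other centring and other bins.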

Additional observations from a re-analysis of the deposited data

How the results depend on the processing

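Of 47 alternative values, 35 kept their direction and stayed within the limits set for them, 10 moved and 2 reversed. These limits were the counting interval for shares and the peak-number ratio, and 1.5 times the count for counts. For median ratios and arm differences, the limits came from the spread of the pairs. They treat the pairs as independent and are no counting intervals, so these labels say nothing about variation between libraries. The pileup alternatives were chosen after seeing the data. Requiring 50% of both peaks to overlap gave shared shares of 65.3% in Jurkat and 61.4% in RPMI-8402, −log10 q of at least 10 gave 77.9% and 76.0%, and the 10000 strongest peaks per list gave 87.3% and 79.3%. The first rule counts fewer overlaps by construction, and the other 2 leave out weak peaks, which were shared less often. The fold enrichment ratio was 0.36 with the pileup in its place and −0.21 without centring. The pileup ratio was 0.19 without centring and −0.11 scaled by the lowest background. Without centring, 8 pairs were 1.5-fold higher in RPMI-8402 and 43 in Jurkat. The arm difference in pileup stayed between 0.38 and 0.47 in the 8 settings tried, which included leaving out 25 to 30, 0 to 5, 30 to 35 or 55 to 60 Mb. With 1 library per line, leaving out a replicate was not possible. No paired analysis was possible because the groups hold 1 sample each. Calls near 10 fragments are limited by depth.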

Other observations

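The widest peaks on chromosome 20 lay near the short-arm end in both lines. The RPMI-8402 peak at positions 304896 to 308109 was 3214 bp wide, with 4.82-fold enrichment and a pileup of 132 fragments, and the Jurkat peak at positions 304944 to 306892 was 1949 bp wide, with 4.92-fold enrichment and 78 fragments. The next in RPMI-8402 were 1960 bp at positions 31070664 to 31072623 and 1885 bp at positions 35201408 to 35203292, and in Jurkat 1882 bp at positions 48806729 to 48808610 and 1730 bp at positions 361226 to 362955. Peaks over 1 kb made up 12.2% of Jurkat peaks on the chromosome, beside 15.1% over the autosomes, and 19.7% of RPMI-8402 peaks, beside 20.2%.

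The highest pileup of the chromosome, singled out after its value was seen, had identical limits in both lists. The peak at positions 26188786 to 26190511, on the short arm next to the centromeric gap, had 2898 fragments in Jurkat and 1417 in RPMI-8402, over backgrounds of 318 and 204 fragments per base. The next highest summits had 223 fragments in Jurkat, at positions 30310958 to 30311832, and 253 in RPMI-8402, at positions 47894317 to 47895362. The chromosome's fold enrichment and pileup medians without peaks of 300 or more fragments were 0.03 and 0.36.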
